A study of Mus musculus with 6 samples.

Results

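The genes described here build MHC class II molecules and load them with peptide: the class II chain genes H2-Aa, H2-Ab1 and H2-Eb1, the peptide-exchange genes H2-DMa and H2-DMb1, their modulators H2-Oa and H2-Ob, the invariant chain gene Cd74 and the class II transactivator gene Ciita. Members were the probe sets whose platform gene symbol is exactly one of these 9 names, each kept separate. They came to 16 of the 45037 probe sets tested and covered 8 of the 9 genes. H2-DMb1 had 0 such probe sets, because both of its probe sets are listed with a second gene as well, and it has no value here.

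The comparison was between 3 arrays of Pax5-/- pro-B cells infected with the EBF retrovirus Mig-EBF and 3 arrays of Pax5-/- pro-B cells infected with the control retrovirus MigR1. Cells of both groups thus lacked Pax5, the factor that commits progenitors to the B lineage. They were grown on ST2 stromal cells with 5 ng/ml IL-7, and GFP-positive cells were sorted 2 days after infection. The labels number the replicates but name no cultures or animals behind them, so the tests rest on the spread among arrays, which may be technical.

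An MHC class II molecule is a pair of alpha and beta chains that shows peptides from endosomes to CD4+ T cells. In the endoplasmic reticulum the invariant chain Cd74 fills the peptide groove. Endosomal proteases then cut it down to a short fragment, H2-DM exchanges that fragment for peptide, and H2-O restrains H2-DM. Ciita is the coactivator without which most class II genes are silent. It binds no DNA itself and acts through proteins on a promoter module of X and Y boxes. In mouse B cell development surface class II is low on early progenitors and appears as the cells mature.

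The promoter module is shown for the 5 members in whose RefSeq promoter windows (250 bases before to 50 after a listed gene start, GRCm38.p6) the Y box core TGATTGG was found, because this shared module is what Ciita acts through. Each stretch of 60 bases is given 5′ to 3′ on the gene's own strand, with capitals for the Y box core and, further 5′, for the X box core TAGNAAC where it matched.
H2-Oa (chr17:34092291-34092350, + strand): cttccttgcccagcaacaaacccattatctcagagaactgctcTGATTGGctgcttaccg
H2-DMb1 (chr17:34153085-34153144, + strand): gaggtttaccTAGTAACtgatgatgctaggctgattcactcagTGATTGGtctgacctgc
H2-Ob (chr17:34238803-34238862, + strand): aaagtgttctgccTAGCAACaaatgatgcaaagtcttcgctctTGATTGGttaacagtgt
H2-Aa (chr17:34287857-34287916, - strand): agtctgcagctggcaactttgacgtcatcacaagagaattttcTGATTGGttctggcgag
H2-Eb1 (chr17:34305763-34305822, + strand): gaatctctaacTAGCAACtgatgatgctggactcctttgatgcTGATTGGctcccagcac

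The Y box core lay 45 to 63 bases before the listed start in these 5 genes, and in H2-DMb1, H2-Ob and H2-Eb1 the X box core ended 23 to 26 bases before it. On both strands the Y box core was in 7.82% and the X box core in 11.4% of all 32851 windows. H2-DMa has 2 listed windows, and neither held either core. One of them held the shorter CCAAT, which is also the reverse complement of the last 5 bases of the Y box core and was in 37.4% of all windows. The palindromic core CCCNNGGG of the EBF motif was in 0 of the 7 member windows and in 13.7% of all windows, which says only that these letters are absent from these windows. H2-Ab1, Cd74 and Ciita had no listed window.

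Median intensities were 445, 439 and 444 in EBF arrays 1 to 3 and 424, 451 and 426 in control arrays 1 to 3. Over all probe sets 394 passed limma's test at an adjusted p of 0.05, 4287 without EBF 3 and 79 to 214 without any other single array. Of 12 pro-B cell markers 11 were measured. All had a mean above the median of the Bacillus controls, which are transcripts absent from mouse cells, as did 40852 of all 45037 probe sets. The summed intensity of the 11 was 72392 to 74654 in EBF and 61624 to 64963 in control arrays. Vpreb3 was higher (log2 0.67; adjusted p = 0.00930) and Dntt lower (-0.70; 0.0226). Vpreb3 lost its call without EBF 2, control 1 or control 2 (adjusted p up to 0.0635), and Dntt without EBF 1, EBF 2, control 1 or control 3 (up to 0.106). With the replicate number as a block 4 of the 11 passed as higher and 1 as lower, against 7.28% of all probe sets: Igll1 (log2 0.57; blocked adjusted p = 0.00409), Cd79b (0.40; 0.0191) and Il7r (0.42; 0.0224) joined Vpreb3 and Dntt. The median of the 11 was 0.26. The Ebf1 probe sets disagreed in direction. The brightest had a log2 difference of 0.12 (adjusted p = 0.469), while 1439789_at had -0.33 (adjusted p = 0.106, blocked 0.0443) and 1448293_at -0.20 (0.206, blocked 0.142), both with groups that did not overlap. The other two, 1416301_a_at and 1457441_at, had -0.10 and 0.06. Their places relative to the viral insert were not tested.

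The 16 member probe sets differed in direction. The DM alpha chain gene H2-DMa was lower in the EBF arrays past the threshold at 1 of its 2 probe sets. That call was lost without any 1 array other than EBF 3. Cd74 was higher and H2-Ob lower past the threshold in the fit that pairs arrays by replicate number, and not in the unpaired fit. The classical chain genes and Ciita passed in neither fit. In the unpaired limma fit on log2(intensity + 32), 1 of the 16 member probe sets passed an adjusted p of 0.05, against 0.875% of all probe sets, and for 2 the unadjusted p was below 0.05, against 18.9% of all probe sets. With the replicate block 3 passed (1 higher, 2 lower), against 7.28% of all probe sets. The median log2 difference of the 16 was -0.09, with 13 negative and 3 positive. Over all probe sets it was 0.02, with 19568 negative and 25469 positive. The 16 are not independent, because they count several probe sets of the same gene, such as 4 of H2-Aa and 3 of Ciita. Only 14 of them had a mean above the Bacillus control median. EBF and control arrays did not overlap for 3 of the 16, against 23.2% of all probe sets. These RNAs come from bulk populations, in which fewer cells of a type and less RNA per cell cannot be told apart.

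**Figure D1:**
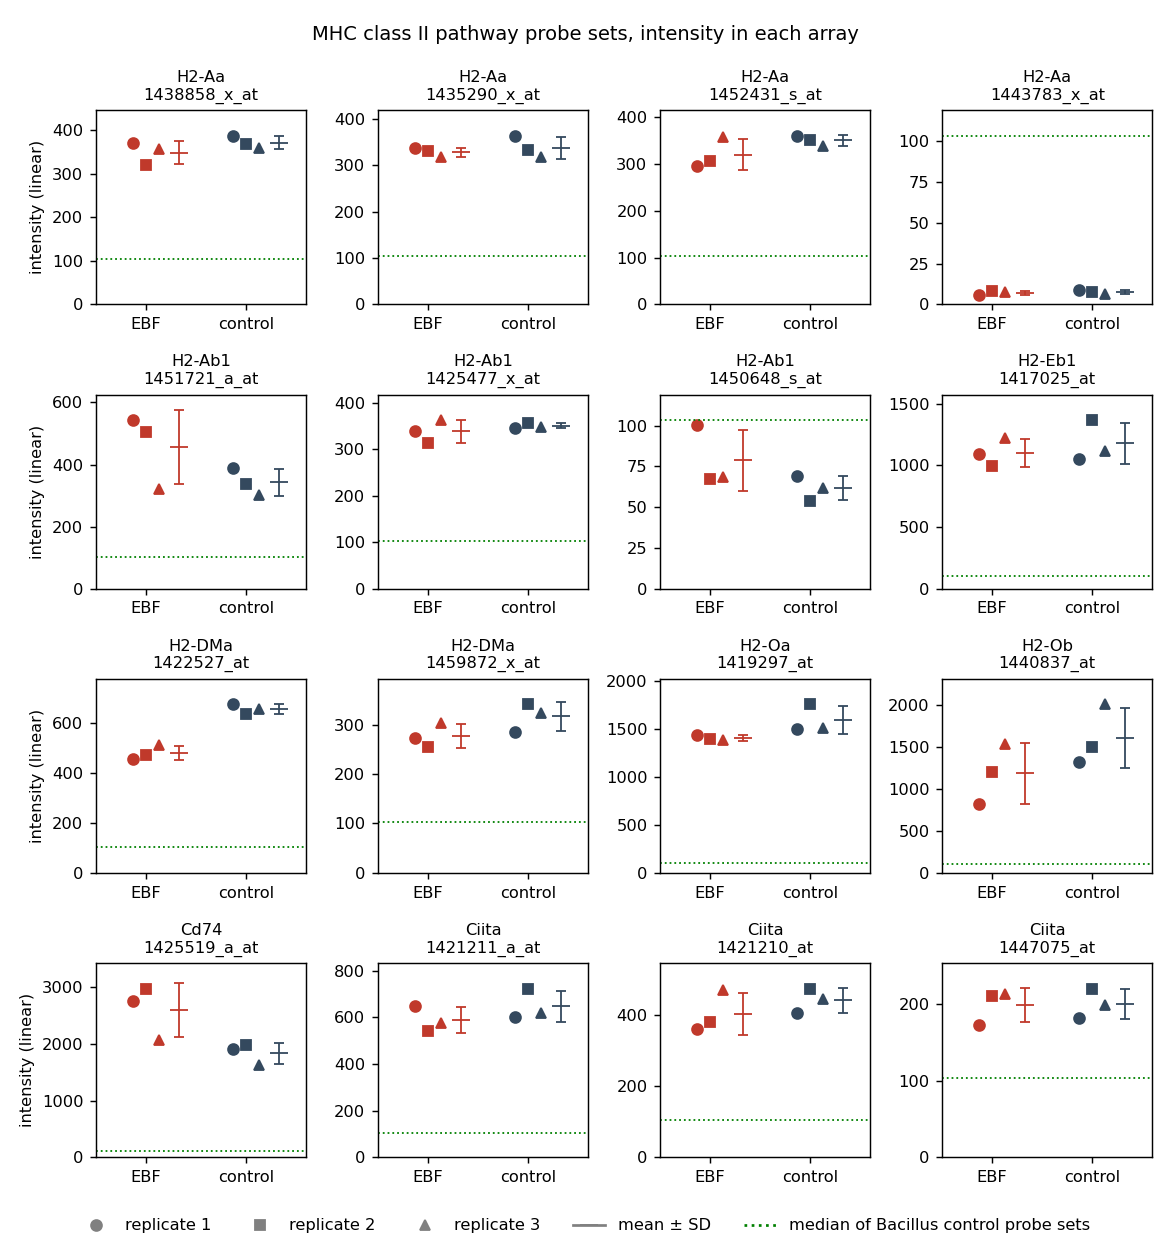
Linear intensity of each of the 16 member probe sets in the 3 EBF and 3 control arrays, with the mean ± SD of each group and, dotted, the overall median of the Bacillus controls (103). The groups stand apart for H2-DMa 1422527_at, H2-Oa and Cd74, and the fourth H2-Aa panel and the third H2-Ab1 panel lie below the dotted line in every array.

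H2-DMa encodes the alpha chain of H2-DM, the editor that releases the invariant chain fragment. Its probe set 1422527_at read 456, 469.9 and 509.9 in EBF arrays 1 to 3, against 674, 637 and 653 in control arrays 1 to 3. The highest EBF array lay below the lowest control array. The means were 479 ± 27.9 in EBF and 655 ± 18.7 in control arrays (SD, n = 3 each). On the log2 scale this was -0.43 ± 0.07 (SE; adjusted p = 0.0418 by limma), or 0.743 of the control level. Over all probe sets, 1.35% had a lower difference. The second probe set, 1459872_x_at, read 273, 254 and 302 in EBF arrays, against 284, 341 and 324 in control arrays. Its groups overlapped, and its log2 difference of -0.17 (95% interval -0.39 to 0.04) had the same sign without passing (adjusted p = 0.341). The _x_at suffix marks a probe set that may also bind other transcripts. Of 15 measured markers of dendritic cells and macrophages, which carry much class II, 2 fell, Mrc1 (-0.43; adjusted p = 0.0428) and Lyz2 (-0.48; 0.0169), and 0 rose. Over all probe sets 0.875% passed in this fit and 7.28% with the replicate block. The calls of Mrc1 and Lyz2 were both lost without any 1 array other than EBF 3, with adjusted p-values of up to 0.170 for Mrc1 and 0.101 for Lyz2. That of Mrc1 was also lost on log2(intensity + 16) and with EBF 3 and control 2 both left out. With the replicate block Batf3 passed as higher beside Mrc1 and Lyz2 (0.36; adjusted p = 0.183, blocked 0.0399), and the median of the 15 was 0.02. A dimmer Cx3cr1 probe set, 1450020_at, passed as lower with the block (-0.35; adjusted p = 0.0772, blocked 0.0302), and its groups did not overlap. The summed intensity of the 15 was 11823 to 12003 in EBF and 13579 to 14295 in control arrays. Without Mrc1 and Lyz2, left out because they passed, the other 13 summed to 5768 to 5996 in EBF and 5513 to 6196 in control arrays. That these overlap follows in part from leaving out the genes that differed, so this sum cannot speak to the share of such cells. Of the 15 means, 0 lay below the Bacillus control median, and over all probe sets 40852 of 45037 means lay above it. The part of such cells in the H2-DMa result was not tested. The call for 1422527_at was lost without any 1 array other than EBF 3, with adjusted p-values of up to 0.192 and log2 differences of -0.40 to -0.45 in those 5 fits.

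H2-Oa and H2-Ob encode the chains of H2-O, which restrains H2-DM. The H2-Oa probe set read 1438, 1393 and 1381 in EBF arrays, against 1503, 1756 and 1511 in control arrays. The groups did not overlap, but the lowest control array was close to the highest EBF array, and the log2 difference of -0.17 (95% interval -0.36 to 0.01) did not pass in either fit (adjusted p = 0.298, blocked 0.224). H2-Ob read 820.1, 1200.04 and 1542 in EBF arrays, against 1318, 1498 and 2013 in control arrays. Replicate 1 was the lowest and replicate 3 the highest in both groups, so the groups overlapped widely while each EBF array lay below the control array of its own number. The pair differences were -0.66, -0.31 and -0.38 on the log2 scale. The difference of the means was -0.45 ± 0.22 (SE; adjusted p = 0.314), and the blocked fit gave the same value with an SE of 0.09 (adjusted p = 0.0191). Without EBF 1 or control 3 it shrank to -0.22 and -0.28. A further H2-Ob probe set is listed with a second gene and was not used.

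Cd74 encodes the invariant chain, which is also a surface receptor for the cytokine Mif. Its probe set read 2760.1, 2980 and 2066 in EBF arrays, against 1906, 1977 and 1625 in control arrays. Every EBF array lay above every control array, and EBF 3 lay nearer to the controls than to EBF 1 and EBF 2. The means were 2602 ± 477 in EBF and 1836 ± 186 in control arrays (SD, n = 3 each), a log2 difference of 0.48 ± 0.14 (SE; adjusted p = 0.149). This was 1.40-fold, and 98.6% of all probe sets had a smaller difference. The pair differences were 0.53, 0.58 and 0.34, and with the replicate block the SE was 0.08 and the adjusted p 0.0109. The unpaired fit passed without EBF 3 (log2 0.64, adjusted p = 0.0138), where 3 of the 16 member probe sets passed, against 9.52% of all probe sets.

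**Figure D2:**
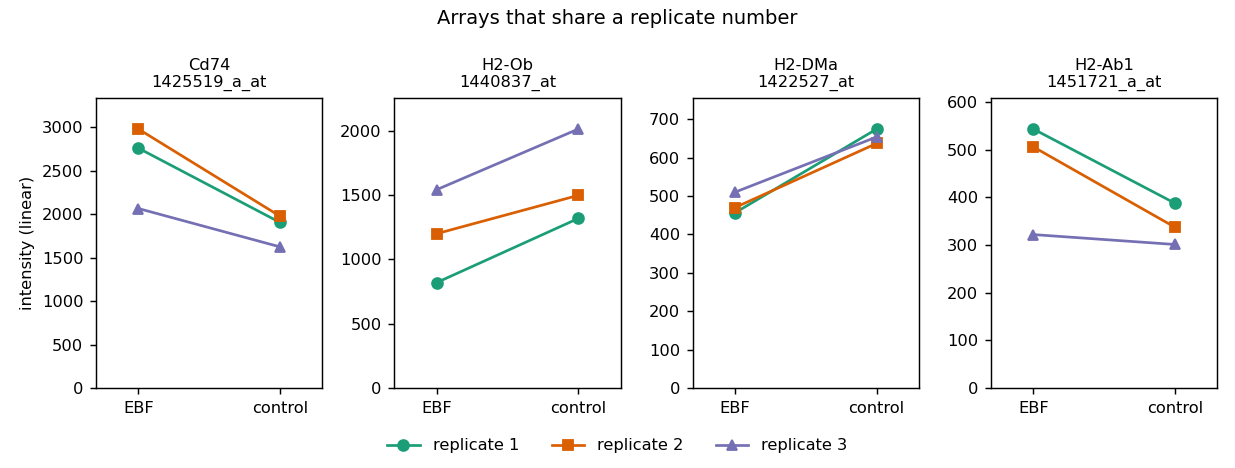
Linear intensity of the 4 member probe sets with the largest absolute log2 differences, with a line joining the EBF and the control array of each replicate number. All 3 lines run the same way in each panel, and for H2-Ob each EBF array lies below the control array of its number while the groups overlap.

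Among the classical chain genes, H2-Ab1, the A beta chain gene, had 3 probe sets that differed among themselves. Probe set 1451721_a_at read 543, 506 and 322 in EBF arrays, against 388, 337 and 301 in control arrays. EBF 1 and EBF 2 stood above every control array and EBF 3 among them. The log2 difference was 0.36 (95% interval -0.04 to 0.76; adjusted p = 0.307, blocked 0.0554), and 0.58 without EBF 3 (adjusted p = 0.0200). Probe set 1425477_x_at read 339, 314 and 363 in EBF arrays, against 347, 357 and 348 in control arrays, a log2 difference of -0.05 (95% interval -0.22 to 0.12). The third, 1450648_s_at, stayed below the Bacillus control median of 103 in every array and gives no fold.

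H2-Aa encodes the A alpha chain. Its probe set 1438858_x_at read 369.5, 319 and 357 in EBF arrays, against 387, 368 and 358 in control arrays, and the groups overlapped. Its log2 difference was -0.08 (95% interval -0.26 to 0.10). The H2-Aa probe sets 1435290_x_at and 1452431_s_at had differences of -0.03 (-0.21 to 0.14) and -0.12 (-0.32 to 0.07). The last, 1443783_x_at, read 5.81 to 7.95 in EBF and 6.22 to 8.87 in control arrays, far below the Bacillus controls.

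H2-Eb1, the E beta chain gene, read 1093, 993 and 1222 in EBF arrays, against 1050.4, 1369 and 1117 in control arrays. The groups overlapped, with control 2 the highest array. The log2 difference was -0.09 (95% interval -0.35 to 0.17; adjusted p = 0.705).

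Ciita was read by 3 probe sets, all above the Bacillus control median in every array. Probe set 1421211_a_at read 649, 541 and 574 in EBF arrays, against 600.0, 723 and 619 in control arrays, and the groups overlapped. Its log2 difference was -0.13 (95% interval -0.35 to 0.09; adjusted p = 0.494). Probe sets 1421210_at and 1447075_at had differences of -0.13 (-0.37 to 0.12) and -0.01 (-0.23 to 0.21). No Ciita probe set passed in the blocked fit either, where the lowest adjusted p was 0.414.

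**Figure D3:**
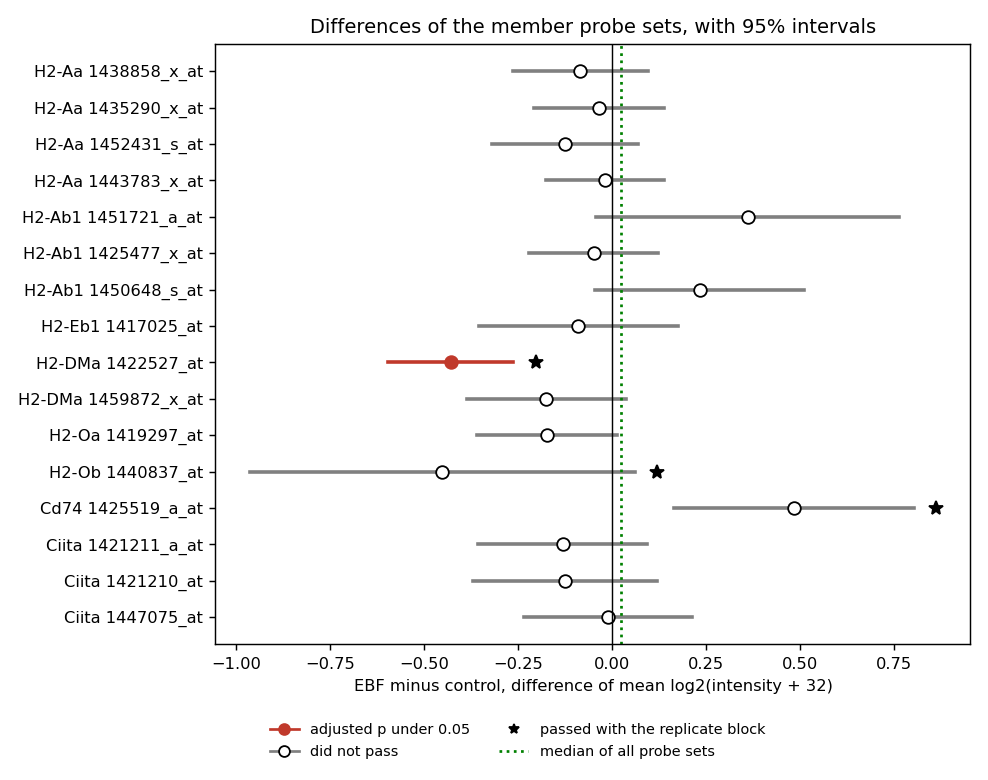
Difference of mean log2(intensity + 32), EBF minus control, for the 16 member probe sets with limma's 95% interval. H2-DMa 1422527_at passed at an adjusted p of 0.0418, stars mark the 3 probe sets that passed with the replicate block, and the dotted line is the median of all probe sets (0.02).

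Genes that act on the same pathway were read at their brightest probe set over all 6 arrays. For comparison with the counts of these and the later lists, 0.875% of all probe sets passed in the unpaired limma fit. With the replicate block 7.28% passed, and an unadjusted p below 0.05 in the unpaired fit was found for 18.9%. Among endosomal proteases and other genes that process the invariant chain or antigen, 1 of 10 passed as higher and 0 as lower in the unpaired fit. This was Lgmn, which encodes legumain, an asparagine-specific endosomal protease that cuts antigens and, in some cells, the invariant chain. It read 3709, 3774 and 3677 in EBF arrays, against 2461, 2063 and 2190.4 in control arrays. The groups lay far apart (log2 0.73 ± 0.08 SE, 1.66-fold, adjusted p = 0.00822), and the call was lost in 1 of 14 alternatives, without EBF 2 (adjusted p = 0.0576). The blocked fit added Ctsl, the cathepsin L gene, as lower (log2 -0.44; adjusted p = 0.148, blocked 0.0385). Ctss, which encodes the cathepsin that trims the invariant chain in B cells, had a log2 difference of -0.26 (adjusted p = 0.183). The median of the 10 was -0.11, and 5 had an unadjusted p below 0.05 in limma, against 18.9% of all probe sets. Beside Lgmn, Ctsl and Ctss these were Ctsd (-0.19, adjusted p = 0.212) and Sppl2a (-0.21, adjusted p = 0.256), so all but Lgmn were lower. A dimmer Sppl2a probe set, 1450459_at, passed as lower with the block (-0.39; adjusted p = 0.318, blocked 0.0387), while 1425193_at did not (-0.11; blocked 0.398).

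Of 7 genes for the X and Y box proteins (RFX, CREB and NF-Y), 0 passed in limma and 1 had an unadjusted p below 0.05. Their median log2 difference was -0.03. The 2 smallest p-values belonged to Nfyb (log2 0.17; adjusted p = 0.222) and Creb1 (-0.17; 0.534). Other Creb1 probe sets went in both directions, and 1423402_at passed as higher with the block (0.39; adjusted p = 0.214, blocked 0.0341). Of 6 measured regulators of Ciita, 0 passed and 3 had an unadjusted p below 0.05 in limma, against 18.9% of all probe sets. Their median was -0.04. Irf8, a partner of PU.1, read 1268, 1604 and 1587 in EBF arrays, against 2031, 1937 and 2382 in control arrays. Its groups did not overlap, and it passed as lower with the replicate block (log2 -0.50; adjusted p = 0.0989, blocked 0.0148). Its second probe set had -0.56 (adjusted p = 0.0548, blocked 0.00932). Spi1, the PU.1 gene, had -0.21 (adjusted p = 0.212, blocked 0.146). Irf4, also with an unadjusted p below 0.05, went the other way (0.28, adjusted p = 0.230, blocked 0.0606). Its dimmer probe set had 0.01 (adjusted p = 0.951).

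Among other class II chain genes, 0 of 3 passed, with 0 at an unadjusted p below 0.05: H2-Eb2 had a log2 difference of -0.19 (adjusted p = 0.479) and H2-DMb2, the second DM beta chain gene, 0.10 (0.499). The genes of the ubiquitin ligases that remove class II from the surface, Marchf1 (0.15; adjusted p = 0.292) and Marchf8 (-0.06; 0.685), did not pass. Among Mif, its relative Ddt and the partners of Cd74, 0 of 5 passed and 1 had an unadjusted p below 0.05. Cxcr2 had 0.45 (adjusted p = 0.225) and passed as higher with the block (0.0169). Cd44, the signalling partner of Cd74, had -0.17 at its brightest probe set (adjusted p = 0.286), while 2 dimmer ones, noticed after their values were seen, fell by 0.67 and 0.78 (adjusted p = 0.0408 and 0.0356). Both of these calls were lost without EBF 2 or any 1 control array, with adjusted p-values of up to 0.182 and 0.149. The dimmest Cd44 probe set differed in the other direction, by 0.79 (adjusted p = 0.0663, blocked 0.00432), so the gene's probe sets disagree.

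Of 15 measured MHC class I pathway genes 0 passed in either fit, with 1 unadjusted p below 0.05, and the median was -0.03. The 2 smallest p-values were those of Tap2, a peptide transporter subunit (log2 -0.26; adjusted p = 0.172), and Tapbp, the tapasin gene (-0.10; 0.450). Of 5 costimulation genes 0 passed in either fit, with 2 unadjusted p-values below 0.05, those of Icosl (0.26; adjusted p = 0.157) and Cd40 (-0.32; 0.191), and a median of 0.10.

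**Figure D4:**
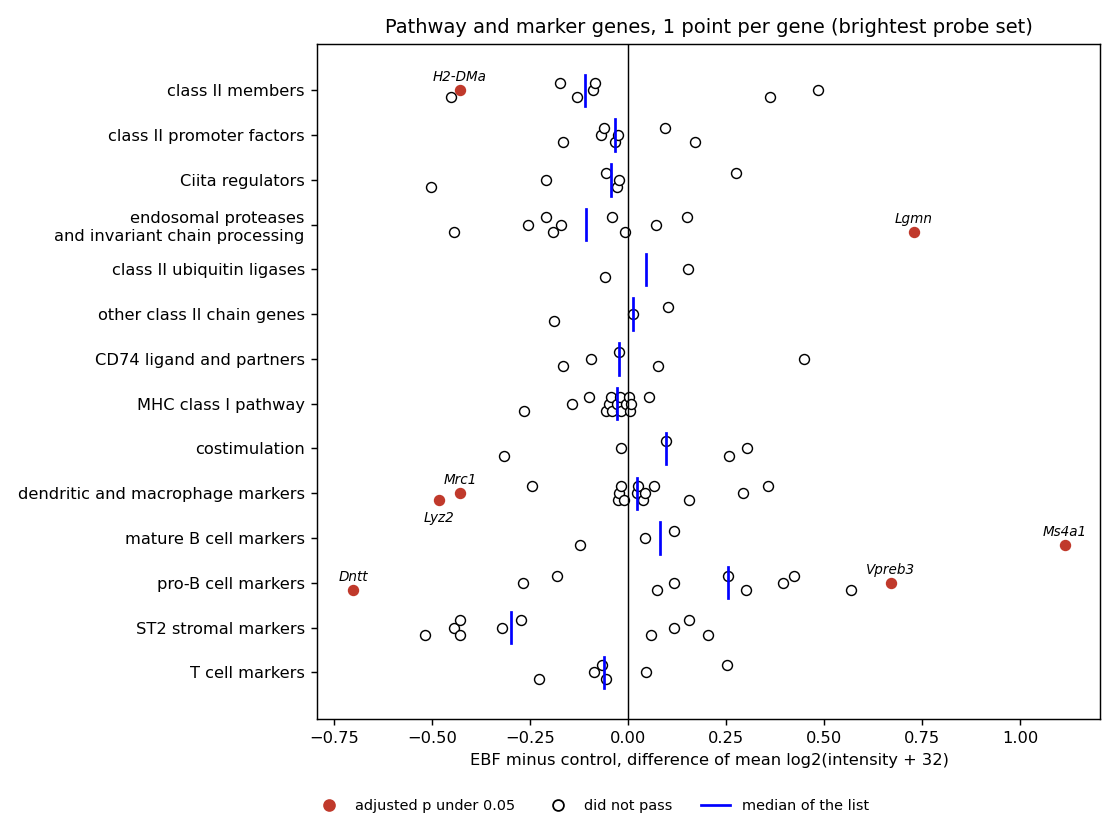
Difference of mean log2(intensity + 32), EBF minus control, for each measured gene of the class II members and of the pathway and marker lists, read at its brightest probe set, with the list median as a bar. Lgmn lies at 0.73, the only filled point among the invariant chain processing genes, and the class I genes cluster near their median of -0.03.

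Of 4 measured mature B cell markers 1 rose, Ms4a1, the CD20 gene (log2 1.11; adjusted p = 0.00118). They summed to 3104 to 3219 in EBF and 2915 to 3084 in control arrays. ST2 stromal markers summed to 15178 to 23092 in EBF and 17771 to 30663 in control arrays. Of these 10 genes 0 passed in limma in either fit, with 1 unadjusted p below 0.05, that of Col3a1 (-0.27; adjusted p = 0.258), followed by Vcam1 (0.15; 0.285). Their median log2 difference was -0.30, with 6 of the 10 negative. EBF was the lower array for 0 of the 10 in pair 1, for 7 in pair 2 and for 8 in pair 3. T cell markers summed to 3610 to 4120 in EBF and 3538 to 4071 in control arrays, and 0 of 6 passed in either fit, with 2 unadjusted p-values below 0.05, those of Cd3g (-0.23; 0.242) and Cd4 (0.25; 0.250). Of 110 dimmer probe sets of the genes in all these lists, 4 passed in the unpaired fit and 14 with the replicate block. Over all probe sets the shares were 0.875% and 7.28%. The 4 were the 2 Cd44 probe sets above, Dntt 1449757_x_at (-0.87, adjusted p = 0.00750) and Ms4a1 1450912_at (1.87, adjusted p = 0.000537). In control arrays that Ms4a1 probe set read only 28.6 to 37.1. The 14 include as higher a dimmer Cd4 probe set, 1427779_a_at (0.47, blocked adjusted p = 0.0115), and Il7r 1448576_at (0.47, blocked 0.0232). As lower they include the mature B cell marker Cd22 1419769_at (-0.31, blocked 0.0457) and Bcl6 1421818_at (-0.41, blocked 0.0189).

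The genes whose profile over the 6 arrays was most like that of H2-DMa 1422527_at, by the root mean square difference of centred log2 values among 11513 genes brighter than the median, were Dock10 (0.024), Wdr26 (0.028) and Antxr2 (0.032). For Cd74 they were Slc5a9 (0.041), Atad3a (0.060) and Pnmt (0.063). Slc5a9, a sugar transporter gene, read 1929, 2074 and 1382 in EBF arrays, against 1277, 1280.1 and 1140.3 in control arrays. It was picked for its likeness to Cd74, so that its EBF 3 array also lay nearest to the controls follows from that choice.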

How the data were processed

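The file held 1 intensity per probe set and array on a linear scale, as deposited by the authors; which software and normalization produced them is not given in the sources used here. A rat array is named in the design text, while the organism label and the gene table of the platform are those of mouse. Members and lists were chosen with earlier results of these data known. All members are named. From each other list, at least the genes that passed are named, or the 2 with the smallest p. The 64 control probe sets among 45101 were not tested, and the 27 Bacillus controls served to judge dim signals (median 103). Trimmed means differed by at most 1.03-fold, so the arrays were not rescaled. Values were analysed as log2(intensity + 32) across all probe sets with limma 3.58.1 in R 4.3.3 (two-sided, Benjamini-Hochberg over all 45037), after the script was tested on simulated data. Log differences understate the change of dim genes. Same-numbered arrays deviated together from their group means (r = 0.316, 0.251 and 0.505), and every array correlated best with its own number, so the numbers were taken to pair the arrays. The labels themselves state no pairing. The number of arrays limits the precision. Alternatives were other pseudocounts, other scalings, a filter on dim probe sets, a trended robust fit, the replicate block and fits without 1 or 2 arrays.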

Additional observations from a re-analysis of the deposited data

How the results depend on the processing

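The count of member probe sets that passed was 1 in the unpaired fit. It was also 1 with either other pseudocount, either other scaling, the filter on dim probe sets and the trended robust fit. With the replicate block it was 3, between 0 and 3 when 1 array was left out, and 2 without EBF 3 and control 2. Over all probe sets the count of 394 became 3280 with the replicate block, 611 with the trended robust fit, 79 to 4287 when 1 array was left out and 1887 without EBF 3 and control 2. The block changed no member's call beyond those of Cd74 and H2-Ob. The log2 difference changed sign in 5 member probe sets, all close to 0 and never past the threshold. With 1 array left out it ranged from -0.17 to 0.020 for H2-Eb1, from -0.096 to 0.00051 for H2-Ab1 1425477_x_at, from -0.074 to 0.016 for H2-Aa 1435290_x_at, from -0.041 to 0.0071 for H2-Aa 1443783_x_at and from -0.069 to 0.072 for Ciita 1447075_at, which was 0.0053 without EBF 3 and control 2. The causes were not tested. With 3 arrays a group, and 1 probe set each of H2-Aa and H2-Ab1 below the Bacillus controls, small changes of these genes could not be detected.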
